A study of Mus musculus with 44 samples.

Results

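The miR-129 family was followed through small RNA counts of the mouse hypothalamus, a part of the brain with neuron groups that set hunger, energy use and hormone release. Its members were chosen by name, and all 3 of them, mmu-miR-129-5p, mmu-miR-129-1-3p and mmu-miR-129-2-3p (written without the species prefix from here on), were found among the 1978 mature miRNAs listed. The 44 libraries came from C57Bl/6J mice in 3 groups. AM132 (16 libraries) were mice made obese by 11 weeks of high fat diet and injected into a vein, at 3.3 mg/kg on 3 days in a row, with a 16-mer oligonucleotide of locked nucleic acid (LNA) complementary to mature miR-132. AM608 (16 libraries) were obese mice given, at that dose, an LNA 15-mer against the primate miRNA miR-608, which serves as the control sequence. RCD (12 libraries) were lean mice of like age on regular chow. Nothing in the labels says that RCD mice received an injection, and diet and injection cannot be told apart where an obese group is set against RCD. Injected mice were killed 7 days after treatment.

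The libraries belong to 4 batches named in the labels. Batches 1 and 3 each hold 4 AM132 and 4 AM608 libraries. Batch 2 holds 8 of each and 4 RCD libraries, RCD 9 to RCD 12, and batch 4 is made of the other 8 RCD libraries. The labels do not say what was done separately in each batch. Total miRNA counts ran from 3020192 to 5997234 per library, with a median of 3996734. Libraries of batch 2 stand apart: a list of 18 neuronal and activity-linked miRNAs summed to between 132168 and 201729 CPM (counts scaled to one common library size, for all summed lists by library totals) there and to between 298029 and 367160 CPM elsewhere. A list of 9 pituitary and neuroendocrine miRNAs summed to between 117391 and 220574 CPM in batch 2 and to at most 57772 CPM elsewhere. Within batch 2, AM608 5 and AM132 5 were highest on the second list, at 220574 and 174404 CPM, and AM132 6 carried 3061 CPM of 3 muscle miRNAs against at most 697 CPM in any other library. Several results that rest on these 3 libraries are given with and without them.

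A miRNA gene gives a hairpin RNA, and the enzyme Dicer cuts from it a duplex of a 5p arm and a 3p arm. One arm, usually the more abundant, is kept in an Argonaute protein and pairs with messenger RNAs through its seed, bases 2 to 8. miR-129 is enriched in neurons, where the 5p arm is known to repress the potassium channel message Kcna1 in dendrites and to take part in the down-scaling of synapses after prolonged activity. Mouse has a pair of miR-129 hairpins, from Mir129-1 and Mir129-2, which yield the same 5p arm and differ in their 3p arms.

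The mature arms are shown because they decide which of the counts can be tied to one hairpin. They are RefSeq sequences on GRCm38.p6, written 5′ to 3′ with the seed in capitals.
miR-129-5p: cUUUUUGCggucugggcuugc
miR-129-2-3p: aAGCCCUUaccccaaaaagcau
These 2 arms carry different seeds. miR-129-5p lies at chr6:29022624-29022644 on the plus strand in Mir129-1 and at chr2:94241419-94241439 on the minus strand in Mir129-2, and the deposited table lists both hairpins as its precursors. Its count is therefore a sum over both genes. miR-129-2-3p lies at chr2:94241376-94241397 on the minus strand.

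The hairpins are shown next, with the 5p arm and the stretch matching miR-129-2-3p in capitals.
Mir129-1: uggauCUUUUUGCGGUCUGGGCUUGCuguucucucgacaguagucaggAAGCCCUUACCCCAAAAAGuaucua
Mir129-2: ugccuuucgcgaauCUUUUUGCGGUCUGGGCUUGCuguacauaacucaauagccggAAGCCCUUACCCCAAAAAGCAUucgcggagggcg
Mir129-1 is 73 nt long at chr6:29022619-29022691 on the plus strand, and overlaps an exon of the long noncoding RNA Gm3294. Its nearest protein-coding neighbours are Lep, the leptin gene, 37529 bp to the right, and Snd1, 87457 bp to the left. Mir129-2 is 90 nt long at chr2:94241364-94241453 on the minus strand, inside an intron of the long noncoding RNA Mir670hg. The first 19 of the 22 bases of miR-129-2-3p, its seed included, occur in Mir129-1 too, and the next base gives the substitution C20U, counted from 1 at the 5′ end of miR-129-2-3p. The bases after it match again, so over its full length miR-129-2-3p differs from Mir129-1 at that base alone. A 3p read that ends before that base matches both hairpins, and how such reads were assigned is not given in the sources used here. Whether a mismatch was allowed for longer reads is not given either. The opposite strand of Mir129-2 is annotated as Mir129b, and its arms were at the edge of detection: miR-129b-5p had 20 counts over all libraries and miR-129b-3p had 20, each being at 0 in 27 of 44 libraries.

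miR-129-5p was the dominant product. Levels are given as CPM scaled by the trimmed mean of M-values (TMM), which sets libraries to a common level over most miRNAs. miR-129-5p averaged 4723 ± 567 CPM (SD, n = 44), and its mean ranked 41 of the 624 miRNAs kept for ranking. It held 91.3% of the family's 941111 counts and was 10.5-fold as abundant as both 3p arms together. miR-129-2-3p averaged 354 ± 67.3 CPM (SD, n = 44; rank 148), and miR-129-1-3p averaged 87.4 ± 25.1 CPM (SD, n = 44; rank 238). Pooled over libraries, miR-129-2-3p had 4.10-fold the counts of miR-129-1-3p. The order 5p, 2-3p, 1-3p held in 44 of 44 libraries, and the ranges of the 3 levels did not overlap. The family made up 0.518% of all miRNA counts.

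The arms differed in how much they varied between libraries of one group and batch. That within-group SD of log2 CPM was 0.18 for miR-129-5p, close to the median of 0.17 over 227 miRNAs of at least 100 CPM. It was 0.25 for miR-129-2-3p and 0.32 for miR-129-1-3p. Sampling of reads, taken as independent, would give an SD of 0.01, 0.04 and 0.08 in the same order. Over all libraries, the highest CPM was 1.74-fold the lowest for miR-129-5p, 2.41-fold for miR-129-2-3p and 3.17-fold for miR-129-1-3p. The lowest single count behind any of these levels was 161 reads, of miR-129-1-3p.

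**Figure D1:**
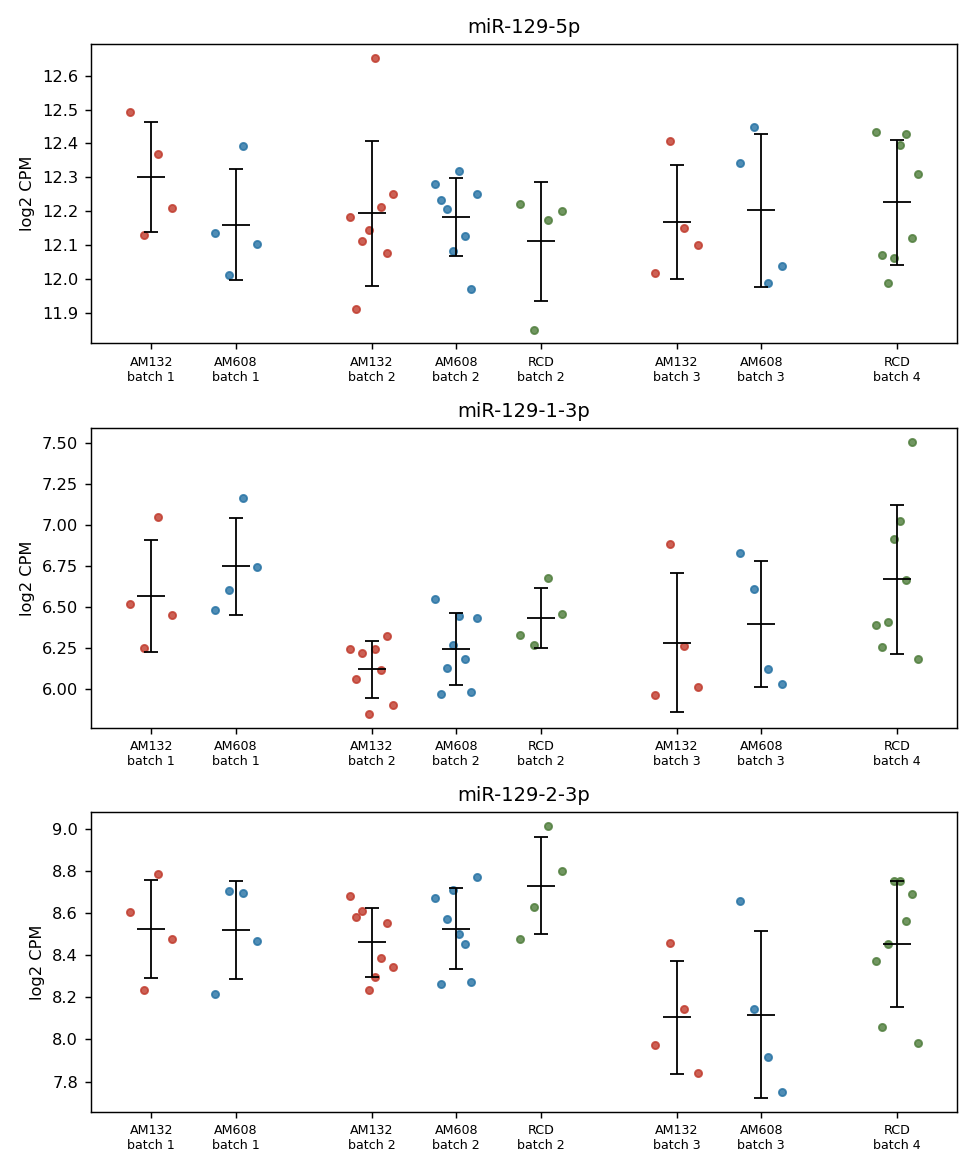
Level of each arm in every library, as log2 CPM (TMM scaling) by group and batch, with AM132 in red, AM608 in blue and RCD in green. Bars are the mean ± SD of the libraries in that group and batch. On this scale miR-129-5p centres near one level throughout, miR-129-1-3p averages lower in batch 2 than in batch 1 in AM132 and AM608, and miR-129-2-3p averages lowest in batch 3.

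The first comparison asked whether the oligonucleotide against miR-132, against the control sequence, went with another level of the miR-129 arms. It did not to a degree that passed the test for any arm. miR-129-5p was at 3853, 4598 and 6440 CPM (lowest, median, highest of 16) in AM132 and at 4015, 4613 and 5588 CPM in AM608. miR-129-1-3p was at 57.2, 75.4 and 131.9 CPM in AM132 and at 62.3, 86.3 and 143 CPM in AM608. miR-129-2-3p was at 229, 343 and 441 CPM in AM132 and at 215, 358 and 436 CPM in AM608. For every arm the groups overlapped over most of their range.

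The log2 fold change of AM132 over AM608, fitted with batch as a term by edgeR's quasi-likelihood test, was 0.04 ± 0.06 (SE) for miR-129-5p, with a Benjamini-Hochberg adjusted p of 0.983 over 559 miRNAs. It was -0.13 ± 0.09 for miR-129-1-3p (edgeR adjusted p = 0.955) and -0.04 ± 0.08 for miR-129-2-3p (edgeR adjusted p = 0.990). In this comparison 0 of the 3 arms were called, beside 2 of 559 miRNAs (0.358%). The difference did not itself differ between batches past the test: 0 of 559 miRNAs (0.0%) were called for the interaction of group and batch by edgeR, with 23 at an unadjusted p under 0.05, and the arms had adjusted p-values of 0.989, 0.990 and 0.989 (5p, 1-3p, 2-3p).

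Within batch 1, miR-129-1-3p measured 91.0, 75.8, 131.9 and 87.2 CPM in AM132 1 to AM132 4 and 88.8, 96.7, 143 and 107 CPM in AM608 1 to AM608 4. The AM132 mean was lower than the AM608 mean by 0.18 on the log2 scale there, and by 0.12 in both batch 2 and batch 3. The groups overlapped in each batch, and in exact permutation tests within batches, 9 in all, every adjusted p was 1.

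Lean and obese mice could be compared in batch 2 alone. Both 3p arms had lower means in either obese group than in RCD, and miR-129-5p had slightly higher ones, but no arm passed the test. miR-129-1-3p stood at 79.9, 76.6, 102 and 87.5 CPM in RCD 9 to RCD 12. Its lowest, median and highest values were 57.2, 71.6 and 79.5 CPM in the 8 AM132 libraries and 62.3, 74.5 and 93.2 CPM in the 8 AM608 libraries. The highest AM132 library thus exceeded RCD 10 but no other RCD library, while AM608 reached further into the RCD range.

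miR-129-2-3p stood at 356, 396, 517 and 446 CPM in RCD 9 to RCD 12. Its lowest, median and highest values were 301, 355 and 410 CPM in AM132 and 307, 371 and 436 CPM in AM608. The highest RCD libraries, RCD 11 and RCD 12, exceeded every obese library of the batch. miR-129-5p stood at 4776, 3693, 4617 and 4710 CPM in RCD 9 to RCD 12, so that RCD 10 was well below the other RCD libraries. It ran from 3853 to 6440 CPM in AM132 and from 4015 to 5103 CPM in AM608.

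For AM132 over RCD, edgeR gave a log2 fold change of -0.28 ± 0.11 (SE) for miR-129-1-3p and -0.24 ± 0.11 for miR-129-2-3p, with an adjusted p of 0.488 for each, and 0.12 ± 0.09 for miR-129-5p (adjusted p = 0.682). Before adjustment the edgeR p-values of the 3p arms were 0.0190 and 0.0433. All 8 of 8 AM132 libraries were below the RCD mean for each 3p arm, and exact permutation tests of log2 CPM gave p = 0.0121 and p = 0.0404, which became 0.145 and 0.242 after adjustment over 12 such tests. For AM608 over RCD the fold changes were -0.16 ± 0.11 for miR-129-1-3p, -0.19 ± 0.11 for miR-129-2-3p (edgeR adjusted p = 0.799 for each) and 0.09 ± 0.09 for miR-129-5p (edgeR adjusted p = 0.901). These comparisons share the RCD libraries.

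The size of these differences moved with single RCD libraries. With each left out in turn, AM132 over RCD ran from -0.33 to -0.21 for miR-129-1-3p and from -0.33 to -0.16 for miR-129-2-3p. AM608 over RCD ran from -0.22 to -0.10 and from -0.28 to -0.11, so both 3p arms stayed lower than in RCD. Without RCD 11, the highest RCD library in both 3p arms, miR-129-2-3p came to -0.16 ± 0.12 for AM132 (edgeR unadjusted p = 0.201) and -0.11 ± 0.12 for AM608, and miR-129-1-3p to -0.21 ± 0.12 and -0.10 ± 0.12. Without RCD 10, the lowest in miR-129-5p, that arm came to 0.04 ± 0.10 for AM132 and to 0.0026 for AM608. Without AM132 5, AM132 6 and AM608 5, the AM132 values were -0.31 (miR-129-1-3p), -0.32 (miR-129-2-3p) and 0.15 (miR-129-5p), and the AM608 values were -0.22, -0.22 and 0.06. None of these passed after adjustment.

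In both of them edgeR called 0 of 599 miRNAs (0.0%), with 59 at an unadjusted p under 0.05 for AM132 and 30 for AM608. DESeq2 called none of the 3 arms in either. Of the pituitary and neuroendocrine list, 9 of 9 miRNAs had a higher mean in AM608 and 8 of 9 in AM132, and 0 passed the edgeR test. The list's median log2 fold change over RCD was 2.37 for AM608 and 2.98 for AM132, and without AM132 5, AM132 6 and AM608 5 it was 0.01 and 0.12. For the 3 muscle miRNAs the median in AM132 was 1.06, and -0.10 without those libraries. The pituitary and neuroendocrine list summed to between 126468 and 151895 CPM in RCD, between 117391 and 220574 CPM in AM608 and between 123155 and 174404 CPM in AM132, with none of its members at 0 in any group, and its part in the result was not tested.

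**Figure D2:**
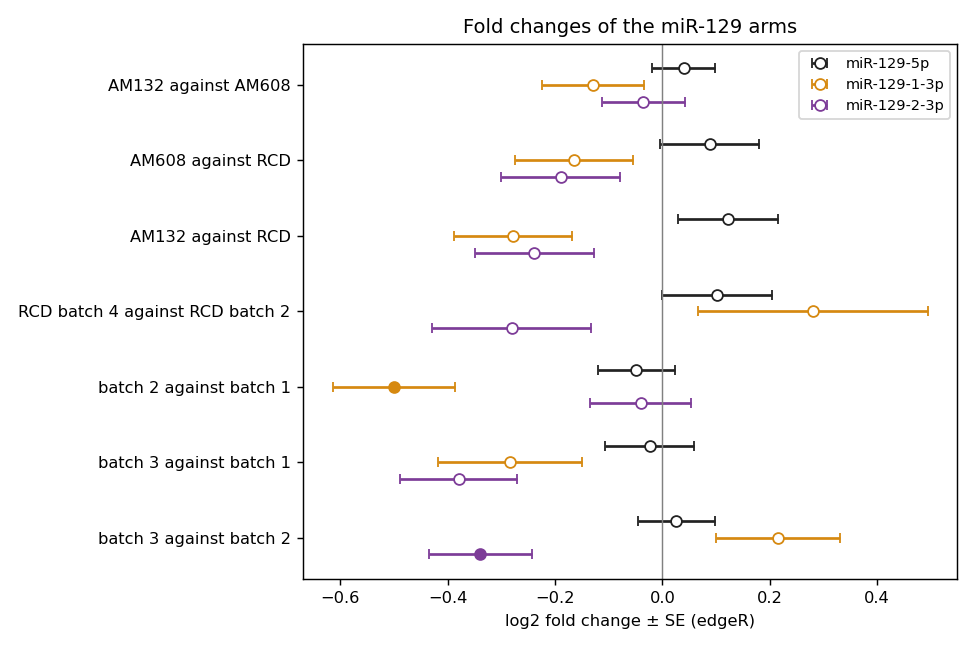
Log2 fold change ± SE of each arm in 7 comparisons, fitted by edgeR with TMM scaling. Filled points passed an adjusted p of 0.05 and open points did not. The 2 filled points are miR-129-1-3p in batch 2 against batch 1 (-0.50) and miR-129-2-3p in batch 3 against batch 2 (-0.34); with library totals the first no longer passes and the batch values of miR-129-5p and miR-129-2-3p shift as given in the text.

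Single arms were called between batches and not between groups. With TMM scaling, miR-129-1-3p was lower in batch 2 than in batch 1 by a log2 fold change of -0.50 ± 0.11 (edgeR adjusted p = 0.000275), with miR-129-2-3p at -0.04 ± 0.09 and miR-129-5p at -0.05 ± 0.07. So 1 of the 3 arms was called in a comparison that called 378 of 559 miRNAs (67.6%). Between batches 3 and 2, miR-129-2-3p was lower in batch 3 by -0.34 ± 0.10 (edgeR adjusted p = 0.0025), while miR-129-1-3p was at 0.22 ± 0.12 (edgeR adjusted p = 0.0961) and 384 of 559 miRNAs (68.7%) were called. Between batches 3 and 1, 2 of 559 miRNAs were called (0.358%), neither of them an arm of the family. For miR-129-2-3p in that pair the fold change was -0.38 ± 0.11 (edgeR adjusted p = 0.0793). Within RCD, batch 4 against batch 2 called 331 of 598 miRNAs (55.4%) and 0 of the 3 arms, with miR-129-1-3p at 0.28 ± 0.21, miR-129-2-3p at -0.28 ± 0.15 and miR-129-5p at 0.10 ± 0.10.

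These batch differences depend on the scaling. With library totals in place of TMM, the median over all miRNAs shifts by 0.32 between batches 2 and 1, by -0.42 between batches 3 and 2 and by -0.35 between the RCD batches. On that scale miR-129-5p turns from -0.05 to 0.28 (edgeR adjusted p = 0.00263) in batch 2 against batch 1, miR-129-2-3p turns from -0.04 to 0.29 (edgeR adjusted p = 0.0291), and miR-129-1-3p is at -0.18 (edgeR adjusted p = 0.231). Relative to the shifted median the arms are at -0.04, -0.03 and -0.50 in the same order. That these lie close to the values with TMM follows from subtracting the shift, and favours neither scaling. In batch 3 against batch 2, miR-129-5p turns from 0.03 to -0.37 and passes (edgeR adjusted p = 0.000166), miR-129-1-3p turns from 0.22 to -0.17, and miR-129-2-3p goes from -0.34 to -0.73. Between the RCD batches, miR-129-5p turns from 0.10 to -0.23 (edgeR adjusted p = 0.0487), miR-129-1-3p turns from 0.28 to -0.05, and miR-129-2-3p goes from -0.28 to -0.61 and passes (edgeR adjusted p = 0.00624). miR-129-1-3p and miR-129-2-3p moved by unequal amounts, with miR-129-1-3p the lower of them in batch 2 against batch 1. A change of scaling shifts all miRNAs by nearly the same amount, so this inequality is nearly the same under both by construction.

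That inequality was read from a quantity free of scaling, the hairpin balance, which is the log2 ratio of miR-129-2-3p to miR-129-1-3p counts within a library (0.5 added to each count). Its mean in batch 2 was 2.35 ± 0.15 in AM132 (SD, n = 8), 2.29 ± 0.14 in AM608 (SD, n = 8) and 2.30 ± 0.10 in RCD (SD, n = 4). Batch 1 averaged 1.96 ± 0.15 for AM132 and 1.78 ± 0.24 for AM608 (SD, n = 4 each), and batch 3 averaged 1.83 ± 0.18 and 1.72 ± 0.13 (SD, n = 4 each). The 8 RCD libraries of batch 4 averaged 1.79 ± 0.26 (SD). All groups were thus near one level in batch 2 and lower in the other batches.

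Single libraries show the same split. In RCD, batch 2 gave hairpin balances of 2.15, 2.37, 2.34 and 2.35 (RCD 9 to RCD 12), while batch 4 ran from 1.19 to 2.05 with a median of 1.82, so that the batches did not overlap. The difference of -0.51 passed an exact 2-sided permutation test with p = 0.00202, the smallest that 495 splits allow, and p = 0.0162 after adjustment over 8 tests. Batch 3 of AM132 (2.01, 1.58, 1.88 and 1.83 in AM132 13 to AM132 16) lay wholly below batch 2, which ran from 2.06 to 2.53 with a median of 2.39. Batch 3 of AM608 (1.83, 1.54, 1.80 and 1.72 in AM608 13 to AM608 16) also lay wholly below batch 2, which ran from 2.06 to 2.45 with a median of 2.30. Their differences, -0.52 in AM132 and -0.56 in AM608, each had an exact permutation p of 0.00202, adjusted over 12 tests to 0.0121. How many other pairs of miRNAs separate these batches as far was not counted, so the split is not shown to be particular to miR-129. By edgeR with TMM, 55.4% of all miRNAs were called between the RCD batches and 68.7% between batches 3 and 2. The median absolute log2 fold change over all miRNAs was 0.40 and 0.42 in the same order.

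Against batch 1 the balance of batch 2 was higher by 0.38 in AM132 and by 0.51 in AM608, with an exact permutation p of 0.00404 (adjusted p = 0.0121) in each. Batch 1 values were 2.09, 1.99, 1.74 and 2.03 in AM132 1 to AM132 4 and 1.74, 2.11, 1.54 and 1.73 in AM608 1 to AM608 4, and the highest of each group overlapped the low end of batch 2. Without AM132 5, AM132 6 and AM608 5 the AM132 difference was 0.34 and no longer passed (adjusted exact permutation p = 0.0571), while that of AM608 was 0.53 (adjusted exact permutation p = 0.0182). Batches 3 and 1 differed by -0.14 in AM132 and -0.05 in AM608, with exact permutation p-values of 0.314 and 0.714.

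Several lists of cell type markers moved with the same batches, and others did so less or not at all. Between batches 2 and 1, 7 of the 8 tested pituitary and neuroendocrine miRNAs and 3 of 3 oligodendrocyte miRNAs were called higher in batch 2 by edgeR, beside 191 of 559 miRNAs (34.2%). With library totals these were 8 of 8 and 3 of 3, beside 53.7% of all miRNAs. Without AM132 5, AM132 6 and AM608 5 they were 4 of 8 and 3 of 3, beside 187 of 562 miRNAs. The oligodendrocyte miRNAs summed to between 1515 and 3084 CPM in batch 2 and to between 241 and 1682 CPM in the other batches. Choroid plexus and ciliated-cell miRNAs summed to between 3858 and 5879 CPM in batch 2 and to at most 3002 CPM elsewhere, apart from RCD 2 of batch 4 at 11529 CPM. Of the 6 miRNAs on that list, edgeR called 3 up and 1 down from batch 1 to batch 2, or 3 and 0 with library totals. From batch 1 to batch 2 it called 0 of 3 muscle and 0 of 3 erythroid miRNAs, beside 67.6% of all miRNAs. In batch 3 against batch 2 it called 1 of 3 muscle and 0 of 3 erythroid miRNAs, beside 68.7% of all. In RCD batch 4 against batch 2 it called 2 of 3 and 0 of 3, beside 55.4% of all. No member of these lists was at 0 in any group of any batch. Their part in the hairpin balance was not tested.

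**Figure D3:**
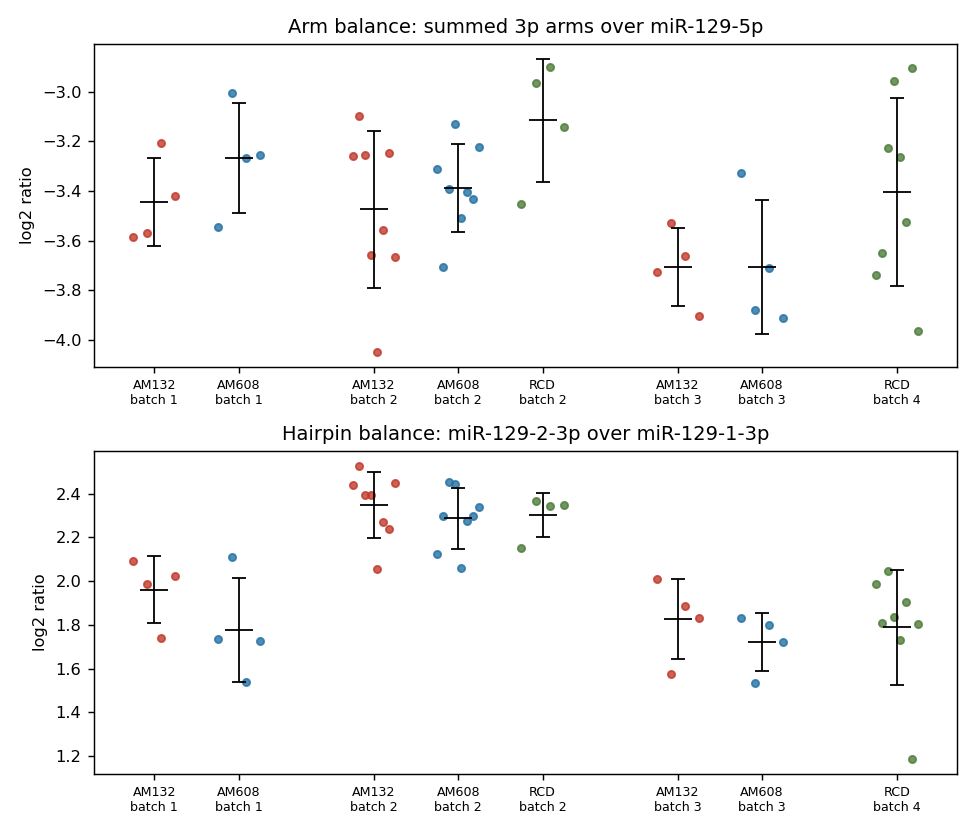
Arm balance (log2 ratio of the summed 3p arms to miR-129-5p, upper panel) and hairpin balance (log2 ratio of miR-129-2-3p to miR-129-1-3p, lower panel) in every library, by group and batch, with the mean ± SD. The hairpin balance of single libraries in batch 2 sits between 2.06 and 2.53 in all 3 groups, and the means of the other groups and batches lie between 1.72 and 1.96. Of batch 1, AM608 2 at 2.11 and AM132 1 at 2.09 lie within the range of batch 2.

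Between the study's groups the hairpin balance did not differ past the test. Over 16 libraries each it averaged 2.12 ± 0.28 (SD) in AM132 and 2.02 ± 0.32 in AM608, a difference of 0.10 by a permutation test within batches (p = 0.0825, adjusted p = 0.165). In batch 2 AM608 differed from RCD by -0.02 (exact permutation p = 0.838) and AM132 from RCD by 0.04 (exact permutation p = 0.610). The differences from RCD are under the SD of each group in batch 2. The SDs over 16 libraries include the differences between batches. Within batches 1, 2 and 3 AM132 differed from AM608 by 0.18, 0.06 and 0.10, beside group SDs from 0.13 to 0.24. None of these passed (exact permutation p = 0.314, 0.420 and 0.343).

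The arm balance, the log2 ratio of both 3p arms together to miR-129-5p, carries the question of strand choice after Dicer cleavage. In batch 2 it was -3.45, -2.97, -2.90 and -3.14 in RCD 9 to RCD 12. It ran from -3.70 to -3.13 with a median of -3.40 in AM608 and from -4.05 to -3.10 with a median of -3.41 in AM132. The obese groups thus had fewer 3p reads per 5p read on average. Below the RCD mean of -3.12 were 8 of 8 AM608 libraries and 7 of 8 AM132 libraries. RCD 9 and RCD 12 lay within the range of both obese groups. The differences from RCD were -0.27 for AM608 (exact permutation p = 0.0586, adjusted p = 0.165) and -0.36 for AM132 (exact permutation p = 0.0808, adjusted p = 0.165), and neither passed. AM608 passed when RCD 9 was left out, at -0.39 (adjusted exact permutation p = 0.0485), though its range still overlapped that of RCD. Without AM132 5, AM132 6 and AM608 5 the AM132 difference from RCD was -0.46 (exact permutation p = 0.0381, adjusted p = 0.152). AM132 differed from AM608 by -0.09 (permutation p = 0.288, adjusted p = 0.384). Within RCD, batch 4 ran from -3.96 to -2.91, and its mean differed from batch 2 by -0.29 (exact permutation p = 0.194).

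The 3p arms of the separate hairpins varied together from library to library, with a higher correlation than either had with the shared 5p arm, a difference that was not itself tested. After the mean of each group in each batch was subtracted from log2 CPM, miR-129-1-3p and miR-129-2-3p correlated over 44 libraries with Pearson's r = 0.82 and Spearman's rho = 0.85. Both had a permutation p of 1e-05, the smallest that 100000 resamples give, and 3e-05 after adjustment over 3 pairs. Without AM132 14 and RCD 7, the libraries farthest out in miR-129-1-3p, r was 0.84, and within batch 2 of AM132 and AM608 alone it was 0.71 (adjusted permutation p = 0.0149). miR-129-5p correlated with miR-129-1-3p at r = 0.40 and rho = 0.46 (permutation p = 0.0171 and 0.00952, adjusted 0.0256 and 0.0143), and r was 0.42 without AM132 6 and AM132 9. Within batch 2 that r was 0.32 and did not pass (adjusted permutation p = 0.316). With miR-129-2-3p, miR-129-5p gave r = 0.23 and rho = 0.26 (permutation p = 0.191 and 0.136), and 0.35 without the same libraries; within batch 2 that r was -0.18. Without TMM the same pair gave r = 0.45 and passed (adjusted permutation p = 0.0117). Reads shorter than 20 nt that match both hairpins would be counted for one or both 3p arms by a rule that is not given. Full-length reads differ at base 20 alone, and whether a mismatch there was allowed is not given. The part of such reads in the first correlation and in the hairpin balance was not tested.

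**Figure D4:**
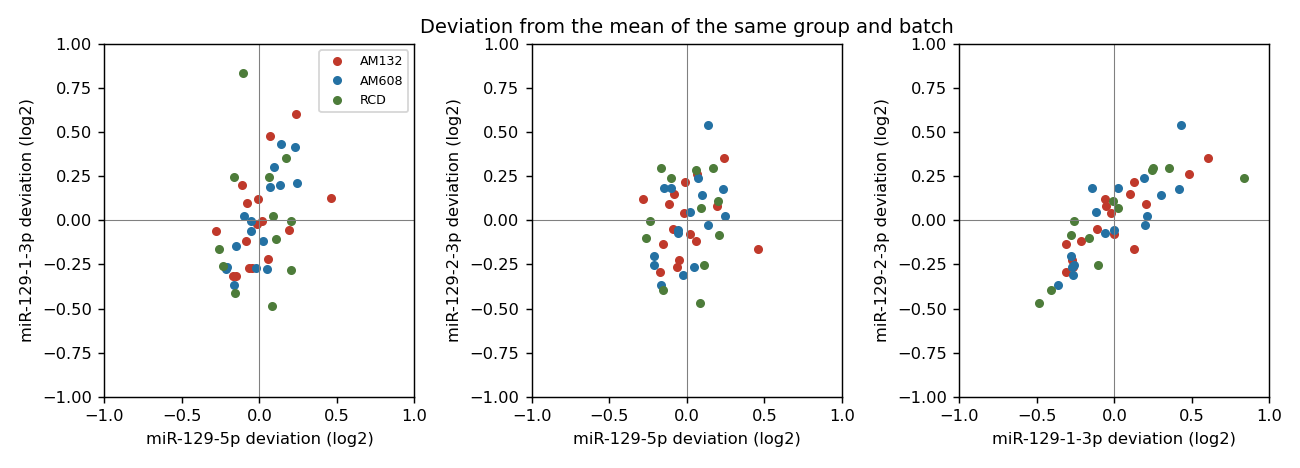
Deviation of each library from the mean of its own group and batch in log2 CPM, for the 3 pairs of arms, with AM132 in red, AM608 in blue and RCD in green. The 3p arms (right panel, r = 0.82) line up along the diagonal, and miR-129-5p against miR-129-2-3p (middle panel) spreads more widely, with r = 0.23, or 0.45 without TMM.

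Among miRNAs of at least 100 CPM, the one most like miR-129-1-3p over the 44 libraries was miR-129-2-3p (r = 0.82), followed by miR-383-5p and miR-135b-5p (r = 0.67 each), with miR-129-5p at place 34 of 227. Those most like miR-129-2-3p were miR-342-3p (r = 0.76), miR-326-3p (r = 0.71) and miR-298-5p (r = 0.68), with miR-129-5p at place 62 of 226; miR-129-1-3p, below 100 CPM, was not a candidate. Those most like miR-129-5p were miR-344-3p (r = 0.61), miR-181d-5p (r = 0.60) and miR-532-5p (r = 0.59), with miR-129-2-3p at place 72 of 226. These values share the libraries, their depth and the scaling, and describe likeness only.

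The rest of the neuronal and activity-linked list gives the setting for the family. It holds miR-132 and miR-212, made from one transcript that neuronal activity induces through CREB; miR-124 and miR-9, which drive and mark neuronal differentiation; miR-128, miR-137, miR-138, miR-153 and miR-218, which are enriched in neurons; and miR-134, miR-329, miR-379, miR-485 and miR-495, from the large miRNA cluster of the imprinted Dlk1-Dio3 locus. All 18 were tested. In AM132 against AM608, 0 of 18 passed by edgeR, 5 being higher and 13 lower, with a median log2 fold change of -0.03 beside 0.00 over all miRNAs. The smallest p was that of miR-132-3p, the target of the oligonucleotide, at -0.46 ± 0.16 (edgeR adjusted p = 0.593), followed by miR-329-3p at -0.11 ± 0.07 (edgeR adjusted p = 0.939). Against RCD, 0 of 18 passed in either obese group. There the smallest p belonged to miR-132-3p (-0.80 ± 0.29, edgeR adjusted p = 0.488) and miR-9-5p (0.12 ± 0.06, edgeR adjusted p = 0.511) for AM132, and to miR-485-5p (0.17 ± 0.09) and miR-379-5p (0.14 ± 0.08, edgeR adjusted p = 0.799 for both) for AM608. Without AM132 5, AM132 6 and AM608 5, miR-132-3p passed in AM132 against RCD, at -0.62 ± 0.11 (edgeR adjusted p = 0.00605).

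Between batches most of the list passed the test. In batch 2 against batch 1, 13 of 18 fell and 3 rose by edgeR, beside 33.5% and 34.2% of all miRNAs, and the list's median was -0.84, beside -0.01 over all 559 miRNAs. Among those that fell were miR-128-3p (-1.89 ± 0.09), miR-124-5p (-1.40 ± 0.06), miR-132-3p (-1.31 ± 0.18), miR-218-5p (-1.27 ± 0.09) and miR-9-5p (-1.07 ± 0.05). The 3 that rose, miR-134-5p (1.26 ± 0.07), miR-495-3p (0.92 ± 0.06) and miR-485-5p (0.20 ± 0.08), all come from the Dlk1-Dio3 cluster, whose miR-329-3p fell by 0.71 and whose miR-379-5p stood at 0.07 ± 0.07. miR-129-5p and miR-129-2-3p, at -0.05 and -0.04, sat beside miR-153-3p (-0.04 ± 0.07) near the median of all miRNAs, and miR-129-1-3p lay between miR-9-3p (-0.42 ± 0.06) and miR-329-3p. The opposite split, 13 of 18 higher and 2 lower, was called in batch 3 against batch 2 (median 0.83, beside 33.8% higher and 34.9% lower of all miRNAs) and in RCD batch 4 against batch 2 (median 0.71, beside 26.9% and 28.4%). Scaled by library totals these were 11 higher and 5 lower (median 0.42, beside 14.0% and 59.7%) and 9 higher and 4 lower (median 0.38, beside 10.2% and 46.8%). On that scale, where the median of all miRNAs is at 0.32, 12 of 18 fell and 5 rose in batch 2 against batch 1 (beside 17.9% and 53.7% of all), miR-379-5p and miR-153-3p turning to a called rise (0.41 and 0.29) and miR-9-3p no longer passing (-0.08). In batch 3 against batch 1, 0 of 18 passed, with a median of 0.02.

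**Figure D5:**
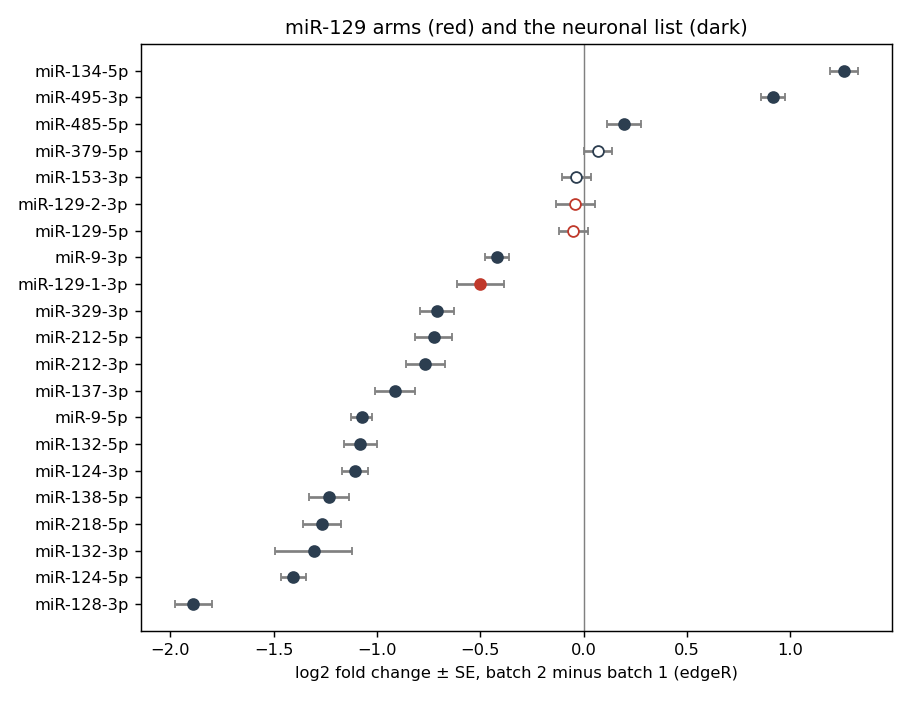
Log2 fold change ± SE of batch 2 against batch 1 (edgeR with TMM scaling, group as a term) for the miR-129 arms in red and the 18 miRNAs of the neuronal list in dark blue. Filled points passed an adjusted p of 0.05 and open points did not. With TMM miR-129-5p and miR-129-2-3p lie near 0 (0.28 and 0.29 with library totals), and miR-128-3p is lowest at -1.89.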

How the data were processed

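Per the labels, RNA came from the miRNeasy kit with integrity numbers above 8.4, libraries used 200 ng in a NEBNext kit for small RNA, and sequencing used a NextSeq 500. The deposited values are raw read counts per mature miRNA. Aligner, genome build and miRNA release are not given in the sources used here. The members and the lists were chosen with earlier results of these data known. The labels do not say that each library is a separate animal, so p-values then measure only the spread between libraries.

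miRNAs passing filterByExpr (count 10, total count 15) were TMM-scaled and tested by edgeR 4.0.16 quasi-likelihood F tests in R 4.3.3, with Benjamini-Hochberg adjustment at 0.05. AM132 and AM608 were fitted over 32 libraries with batch as a term, and RCD comparisons over the 20 libraries of batch 2. SEs were derived from the fold change and its F. Log2 CPM used a prior count of 2. The fits were tested on simulated counts. A log2 change of 0.25 was recovered in 49.3% of cases for AM132 against AM608, 5.97% for AM608 against RCD and 11.9% for AM132 against RCD. Changes of that size would thus mostly be missed against RCD. A log2 change of 1 was recovered in 98.5%, 89.4% and 84.8% in the same order. Balances were compared by 2-sided permutation tests, exact or with 100000 resamples. Alternatives were RLE scaling, DESeq2 1.42.0, other filters, a balance pseudocount of 5, no batch term, single batches, a replicate block and libraries left out. Scaling by library totals, and balances between batches (RCD batch 4 included) with libraries left out, were added after seeing the data. Within a group and batch no library duplicated another. The closest pair, AM132 7 and AM132 11, had a chi-square of 4.55 per degree of freedom, and the next pair had 10.5. Pairs across groups or batches were not compared. Named miRNAs are the members, the miR-129b arms, the 3 most alike per member and, from the neuronal list, those past the test or the 2 of smallest p; miR-153-3p and miR-379-5p were named after their values were seen. The tRNA fragment table was not used.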

Additional observations from a re-analysis of the deposited data

Results flagged for a closer look

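In 40 checks (5 measures in each of the 8 sets of libraries of one group and batch), 4 found a library whose gap to its nearest neighbour was large for the range of its set, and chance gives about 1 in 20. AM132 9 had the highest miR-129-5p of the 8 AM132 libraries of batch 2, with a log2 CPM of 12.653, the next being 12.251. RCD 10 had the lowest miR-129-5p of the 4 RCD libraries of batch 2, at 11.851, the next being 12.173. RCD 9 had the lowest hairpin balance of those 4, at 2.1527, the next being 2.3422. RCD 7 had the lowest hairpin balance of the 8 RCD libraries of batch 4, at 1.1868, the next being 1.7327, and the highest miR-129-1-3p of all libraries, at 181 CPM.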

How the results depend on the processing

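The 4 RCD libraries of batch 2 and the scaling limit what can be said. Scaling by library totals turned miR-129-1-3p to -0.046 and miR-129-5p to -0.23 in RCD batch 4 against batch 2, where miR-129-2-3p passed at -0.61; it gave 0.29 for miR-129-2-3p, 0.28 for miR-129-5p and -0.18 for miR-129-1-3p in batch 2 against batch 1, and -0.17 for miR-129-1-3p and -0.37 for miR-129-5p in batch 3 against batch 2. For AM132 against AM608, miR-129-2-3p was at 0.023 in batch 1 alone and miR-129-5p at -0.052 in batch 3 alone. No arm was called in any alternative of the 3 group comparisons. Without AM132 5, AM132 6 and AM608 5 the hairpin balance differed from RCD by 0.0069 in AM608 and by -0.0024 in AM132, and between batches 2 and 1 of AM132 by 0.34. miR-129-5p and miR-129-2-3p correlated at r = 0.45 without TMM and -0.18 in batch 2 alone, where miR-129-5p and miR-129-1-3p gave 0.32. The 2 miRNAs called between AM132 and AM608 became 1 with no filter, in batch 2 alone and without the 3 libraries, and 0 with no batch term and in batch 1 or 3 alone. AM132 against RCD called 1 without the 3 libraries, and batch 3 against batch 1 called 0 with RLE scaling or library totals. The cause of these changes was not tested.

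With 1 RCD library, or 1 library of batch 1 or 3, left out, the arm balance ran from -0.39 to -0.20 for AM608 against RCD, -0.47 to -0.29 for AM132 against RCD, -0.44 to -0.25 for AM608 batch 3 against batch 2 (passing without AM608 13, adjusted exact permutation p = 0.0145), and -0.075 to 0.052 for AM132 batch 2 against batch 1. The hairpin balance ran from -0.066 to 0.0055 for AM608 against RCD, -0.0066 to 0.065 for AM132 against RCD, -0.13 to 0.056 for AM608 batch 3 against batch 1, and -0.56 to -0.43 for RCD batch 4 against batch 2, which passed without each of the 12 RCD libraries in turn (-0.43 without RCD 7).

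Replicate numbers run across groups. In 11 of 16 same-numbered pairs deviations correlated over 0.1 (r from -0.31 to 0.54). Among the 4 or 8 AM608 libraries of their batch, 6 of 16 AM132 libraries correlated best with their own number. Whether that is more than chance gives was not tested. With a replicate block the hairpin balance of AM132 against AM608 still differed by 0.10 (permutation p = 0.0165, adjusted 0.066), and edgeR called 2 miRNAs.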
